A study of Mus musculus with 12 samples.

Results

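The exonic RNA of mouse embryonic stem cells without Dicer1 was compared with that of the wild-type line TFC, gene by gene. The members are the 13282 genes, of 18412 listed, whose mean over both deposited group columns was at least 10 normalised reads. Dicer1-/- cells and TFC cells were each represented by 3 libraries of strand-specific polyadenylated RNA, in a series of 12 libraries that also holds another knockout and its own wild type. All cells grew on gelatin, without a feeder layer being named, in medium with 15% serum and leukaemia inhibitory factor (LIF) at 1000 U/mL. The series describes the mutants as stable, no age applies to a line, and no transgene, Cre or rescue is named for either line. The comparison asks which transcripts differ in a line with stable loss of Dicer. It sets 1 knockout line against 1 wild-type line, so loss of Dicer and any other difference between the lines cannot be told apart. Nothing in the labels says that the 3 libraries of a line came from separate cultures, so p-values capture no more than how far these libraries scatter, and that scatter may be technical. In bulk RNA, fewer cells of a type and less RNA per cell cannot be told apart.

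Dicer is the nuclease that cuts hairpin precursors into mature microRNAs, which Argonaute proteins carry to messages that pair with the microRNA seed. Bound messages are deadenylated, decapped and translated less. In mouse embryonic stem cells the miR-290 and miR-302 clusters, together with the related miR-17 family, are among the most abundant microRNAs, and they are known for speeding passage through the G1/S transition.

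The microRNAs of the first 2 clusters share 1 seed, and the sequences below show it. They are mature sequences from RefSeq (GRCm38.p6), 5′ to 3′, and the capitals mark bases 2 to 8, the seed. The last line gives miR-17-5p, whose seed is shifted by a base.
miR-294-3p: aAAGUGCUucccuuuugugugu
miR-291a-3p: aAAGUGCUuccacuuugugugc
miR-295-3p: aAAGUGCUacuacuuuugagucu
miR-302b-3p: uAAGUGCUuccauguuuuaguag
miR-302d-3p: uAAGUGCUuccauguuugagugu
miR-17-5p: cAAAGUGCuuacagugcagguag

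A message pairs with the first 5 of these through the 7 letters AGCACTT. The next lines show such matches in 3′ untranslated regions (UTRs) of genes that were higher without Dicer, each printed 5′ to 3′ on the transcript strand with the 7 letters in capitals. They were read from GENCODE M21 transcripts (GRCm38) and were chosen because the genes recur in the results.
Lats2 (chr14:57691085-57691107, minus strand): tacagtatggaaagAGCACTTat
Lats2 (chr14:57690986-57691008, minus strand): gtgttgtatctgatAGCACTTgt
Dazap2 (chr15:100619528-100619550, plus strand): catcacataccttcAGCACTTct
Tmem123 (chr9:7792562-7792584, plus strand): ctctgctcacataaAGCACTTga
Hif1an (chr19:44574446-44574468, plus strand): atctgtcacttcgaAGCACTTga
Hif1an (chr19:44575438-44575460, plus strand): ctggagccccattgAGCACTTtg
Txnip (chr3:96561226-96561248, plus strand): aaggtgatgttcttAGCACTTta
Clock (chr5:76212851-76212873, minus strand): tttgaaaggtaataAGCACTTta

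The deposited values behave as group means of size-factor-normalised reads, from which whole reads per library were solved. The 6 libraries held from 12794395 to 30863374 exonic reads. They are called A, B and C in each line, A being the library least like the other 2. A stood apart in both lines in the same way. On the log2 scale, knockout A correlated with TFC A at 0.915 over genes, and with knockout B and C at 0.879 and 0.890. Deviations of A from the group mean correlated at 0.858 between the lines over 6516 genes with a mean of at least 500. The labels do not say what sets A apart, so a term for library set is given as an alternative, and main results are also given within A and without A. Whether depth sets A apart was not tested. Of the members, 122 of very high level had more than 1 solution, so they were left untested and have group means only, among them Sox2, Actb and Hsp90ab1. The cells held the markers of their label: the authors' means for Pou5f1 were 19210 in the knockout and 16642 in TFC, and those for Nanog were 18692 and 14970. Fibroblast markers, a sign of feeder cells, summed over 11 tested genes to 376 to 499 normalised reads in knockout libraries and 836 to 1282 in TFC libraries. Col3a1 was listed at 0 in all 3 knockout libraries and Col1a1 at 0 in TFC library B.

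Of 13160 genes tested with limma on log2(value + 1), 134 rose in the knockout (1.02% of those tested) and 30 fell (0.228%), together 164 genes (1.25%), at a Benjamini-Hochberg adjusted p under 0.05. The groups did not overlap in 2808 genes (21.3%), with the knockout above TFC in 1541 (11.7%) and below in 1267 (9.63%). At an unadjusted p under 0.05 there were 1903 genes (14.5%). Genes that rose did so by a median of 1.88 on the log2 scale (range 1.13 to 8.21), from a median TFC level of 725 normalised reads to 2655. Genes that fell did so by a median of -2.09 (range -8.36 to -1.16), from 2773 to 660. A rise of at least 4-fold in group means was seen in 53 of the 134 genes and of at least 10-fold in 15, and a fall of at least 4-fold in 15 of the 30. All 134 and all 30 had the same direction within library A and over B and C without A, as had 8873 of the 13160 tested genes. The calls were made on these same libraries, so this is no separate support for them. The median change over all tested genes was -0.01, and 49.4% lay above 0.

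The number of calls moved with single libraries, down or up. Without knockout library B, without knockout library C or without TFC library C limma called 0 genes, with 1217, 1153 and 1514 at an unadjusted p under 0.05. Without TFC library B it called 7 genes, without knockout library A 101 and without TFC library A 483. With the term for library set, 955 genes rose (7.26%) and 650 fell (4.94%), and all 164 calls were among them. That term uses the same libraries and leaves each log2 fold change as it was, so this is no separate support for the calls.

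**Figure D1:**
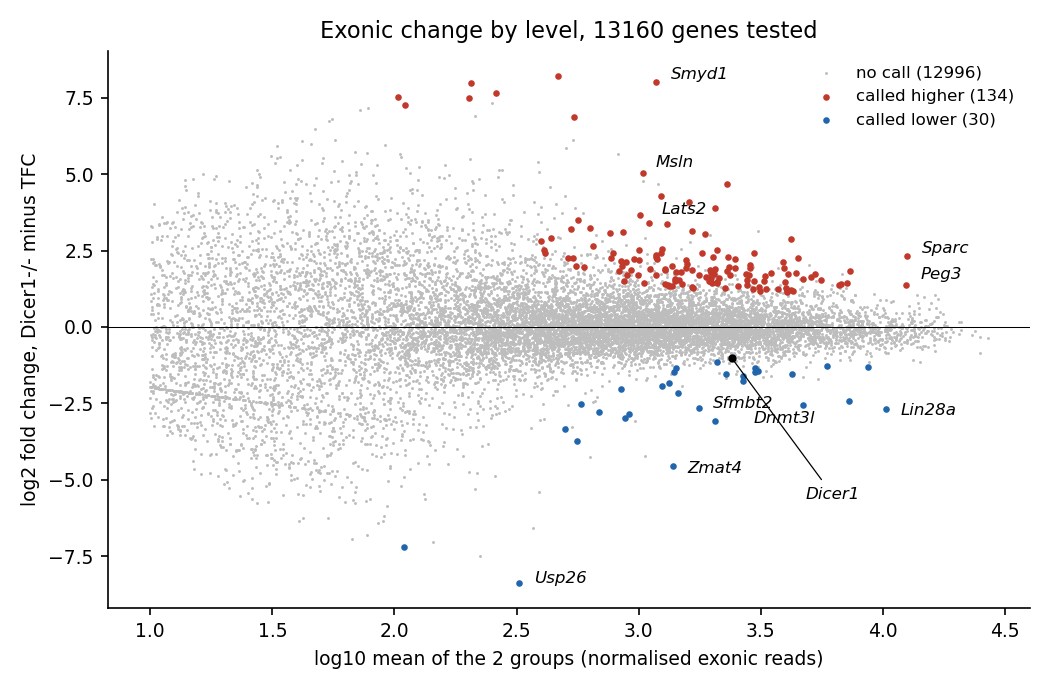
Exonic change (log2 fold change, vertical axis) against level (log10 mean of both groups, in normalised reads, horizontal axis) for 13160 tested genes, 1 point per gene, with genes called by limma in red (134 higher) and blue (30 lower). The grey scatter narrows to the right, and no gene with a mean under 100 normalised reads was called.

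Calls were unevenly spread over expression level. Of 975 genes of 10 to 30 normalised reads in TFC 2 rose, and of 1857 of 30 to 100 reads 3 rose, with 0 called lower in either class. The 315 genes under 10 reads in TFC passed the filter only through the knockout, so a lower call was not open to them, and 6 rose. The median SE of a log2 fold change was 2.14 for genes of 10 to 30 reads in TFC, 0.446 for 300 to 1000 and 0.285 for 3000 to 10000. Of 3261 genes of 300 to 1000 reads, 54 rose and 3 fell. Of 1389 genes of 3000 to 10000 reads, 6 rose and 11 fell, and of 251 above that, 0 rose and 3 fell, namely Lin28a, Trh and Pgk1. The smallest change called was 1.13 upward and -1.16 downward on the log2 scale.

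Dicer1 itself (chromosome 12) was lower without passing the test. In the order A, B, C, normalised exonic reads were 1334, 1763 and 1675 without Dicer against 2944, 3278 and 3496 in TFC. The groups did not overlap, and the log2 fold change was -1.03 (SE 0.23, limma adjusted p = 0.0756, and 0.00202 to 0.374 over the alternatives). Its introns changed by -0.58. The deleted part of the gene is not named in the labels, so this level does not check the allele.

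Genes with a 3′ UTR match to the shared seed stood higher than genes without one. The 7 letters AGCACTT were searched on the transcript strand in the longest annotated 3′ UTR of 12839 tested genes, of which 2239 (17.4%) held at least 1 match. The median log2 fold change was -0.05 over 10600 genes with 0 matches, 0.18 over 1818 genes with 1 match and 0.17 over 421 genes with at least 2. The share of genes called higher was 0.84%, 1.38% and 4.04% in the same order. That share also grew with matches to other seeds: with at least 2 matches it was 4.44% for miR-217-5p, 4% for miR-19b-3p, 2.57% for miR-16-5p and 10.1% for miR-92a-3p, the last over 89 genes. It is therefore not particular to the miR-290 and miR-302 seed. Among genes with at least 1 match, 42 rose and 1 fell, and 298 (13.3%) rose with the term for library set, against 6.01% of genes without a match. The medians were -0.06, 0.09 and 0.22 within A, and -0.02, 0.19 and 0.21 without A.

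Introns of the same genes showed no such gap: the median intronic change was 0.07 over genes with a match and 0.08 over genes without. The gap in exonic medians was present in each class of UTR length, but the gap in calls was not. In UTRs under 1000 bases the median was 0.34 with a match and -0.09 without. In UTRs of 1000 to under 2500 bases the medians were 0.21 and -0.03, and in longer UTRs 0.13 and 0.02. In those longer UTRs, 1.57% of 1148 genes with a match were called higher and 2.01% of 1688 genes without one. With the shortest annotated 3′ UTR of each gene in place of the longest, the medians were 0.19 with a match and -0.03 without.

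**Figure D2:**
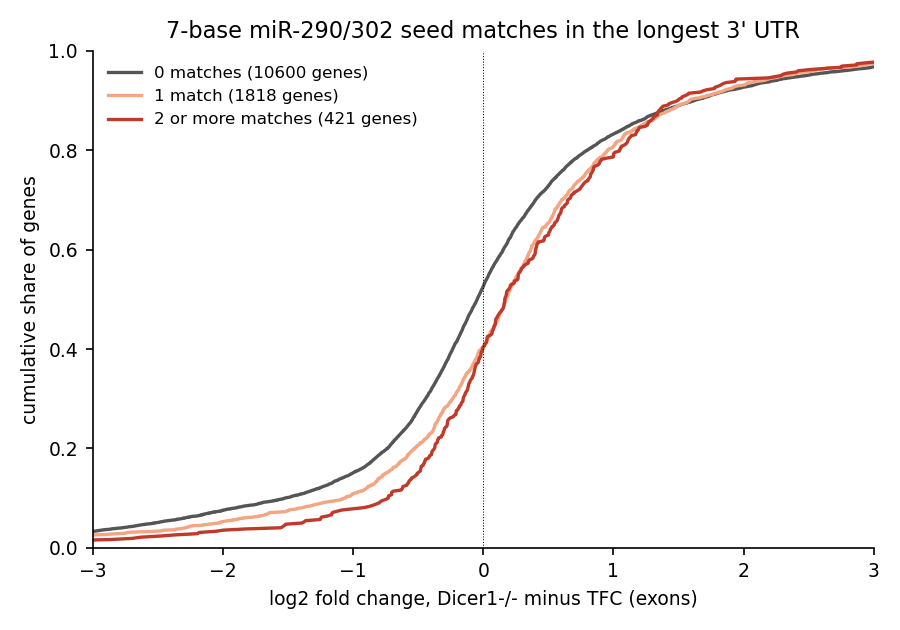
Cumulative share of genes (vertical axis) by exonic log2 fold change (horizontal axis) for genes with 0, 1 and at least 2 matches to the miR-290 and miR-302 seed in the longest 3′ UTR. Below a change of about 1 the curves with matches lie to the right of the dark grey curve, with medians of 0.18 and 0.17 against -0.05.

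Over genes with at least 1 match, most other seeds gave lower medians than the 0.17 of the miR-290 and miR-302 seed. Genes with a match for miR-17-5p, whose 7 letters GCACTTT share 6 bases with the site above, had a median of 0.20. Medians were 0.14 for miR-19b-3p, 0.14 for miR-130a-3p and 0.11 for miR-92a-3p. They were 0.06 for miR-16-5p, 0.06 for miR-26a-5p and 0.02 for let-7a-5p. For miR-9, miR-218, miR-216a and miR-217, which are known from neurons or pancreas, medians ran from 0.03 to 0.09. With at least 2 matches the order differed. Medians were then 0.41 for miR-92a-3p, 0.32 for miR-17-5p, 0.19 for miR-19b-3p and 0.17 for miR-130a-3p. None of these was below the 0.17 of the miR-290 and miR-302 seed, and the other seeds compared ran from -0.01 to 0.14. Genes with matches tend to have long UTRs and can hold several kinds of match, so these groups of genes overlap.

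Among genes known as targets of miR-290 and miR-302, a list of which 19 were tested, 17 lay above 0 with a median of 1.26, against -0.01 over all genes, and 4 rose: Lats2, Casp2, Cdkn1a and Dazap2. In 11 of the 19 the knockout lay wholly above TFC, as it did in 11.7% of all genes tested, of which 1.02% were called higher. Dazap2, an adaptor protein, had 6410, 9419 and 8411 reads in knockout libraries and 1852, 3184 and 2341 in TFC. The groups did not overlap, and the log2 fold change was 1.73 (SE 0.28, limma adjusted p = 0.032). Its intronic change was 0.00 with an SE of 1.27, at mean intronic reads of 40.4 in the knockout and 47.9 in TFC. Introns of Cdkn1a changed by 2.58 (SE 1.42), those of Casp2 by 0.69 (SE 0.47) and those of Lats2 by 2.15. Casp2 lies between 35 and 85 Mb on chromosome 6, a stretch described below, where the median exonic change was 1.01. Mbd2, a reader of methylated DNA, had 906, 1679 and 1365 reads against 460, 485 and 262 and did not pass (log2 fold change 1.71, limma adjusted p = 0.0778). Bmpr2, a BMP receptor, had 2865, 3180 and 3211 against 1500, 1332 and 1920, also without passing (0.98, limma adjusted p = 0.0972). Of the other members, Pfkp, a phosphofructokinase, stood below TFC in every library, with 1002, 329 and 622 reads against 3336, 2132 and 1644 (log2 fold change -1.94, limma adjusted p = 0.0815).

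Several called genes outside that list hold seed matches, and they were picked for mention after their values were seen. Hif1an, the asparagine hydroxylase that restrains hypoxia-inducible factors, holds 3 matches. It had 5870, 5955 and 5984 reads in knockout libraries and 2868, 2224 and 2820 in TFC. Every knockout library was thus above every TFC library (log2 fold change 1.18, SE 0.22, limma adjusted p = 0.0438). Its introns changed by 1.78 with an SE of 1.75, at mean intronic reads of 54.7 in the knockout and 42.8 in TFC. Txnip, which binds thioredoxin and slows glucose uptake, holds 2. Its levels were 8786, 11841 and 13364 against 4736, 2575 and 2557 (1.83, SE 0.31, limma adjusted p = 0.0358), with TFC library A nearest to the knockout and an intronic change of 1.58. Clock, the circadian transcription factor, rose by 1.53 (SE 0.23), with an intronic change of 0.20 (SE 0.30). Tmem123, a transmembrane mucin-like protein, had 4697, 6896 and 7224 reads against 1452, 2477 and 1824 and an intronic change of -0.22.

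Exonic and intronic reads could both be tested for 125 of the 134 higher and 27 of the 30 lower genes. Introns lay above 0 in 116 of the 125 (median 1.69, and 1.84 in exons), and 12 were called higher in introns, where 32 of 11625 genes (0.275%) were called higher and 9 (0.0774%) lower. All 27 lower genes lay below 0 in introns (median -1.39, and -2.16 in exons), with 0 called there by limma, 21 of them past -1. The intronic calls also depended on single libraries, against 41 with all: leaving out knockout intron libraries 1, 2 and 3 gave 13, 0 and 1, and TFC intron libraries 1, 2 and 3 gave 37, 1 and 2. Where limma called 0, 739 genes had an unadjusted p under 0.05. The intron libraries could not be linked to A, B and C.

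In 35 higher genes the introns changed by less than 0.5 of the exonic change, and in 90 by more. Of the 34 with an annotated 3′ UTR in the first set, 18 (52.9%) held a match to the miR-290 and miR-302 seed, and of 88 in the second set 23 (26.1%) did, against 17.4% of all tested genes. The sets differ in UTR length (medians of 2171.5 and 1817 bases, and 1199 over all genes). For let-7a the shares were 11.8%, 15.9% and 10.7%. The sets were formed from measured values, so these shares are a description without a test. In the first set the intronic SE was 2.26 for Jak1, 1.27 for Dazap2 and 0.30 for Clock. In the second it was 2.22 for Igf2 and 1.97 for Cyr61. The set of a gene with a large intronic SE is uncertain. The first set included Ago1, Tnrc6a, Tnrc6b, Dazap2, Clock, Lamp2, Jak1, Rb1 and Kat2b, and the second Plagl1, Msln, Smyd1, Igf2, Itgav, Hipk3 and Cyr61.

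**Figure D3:**
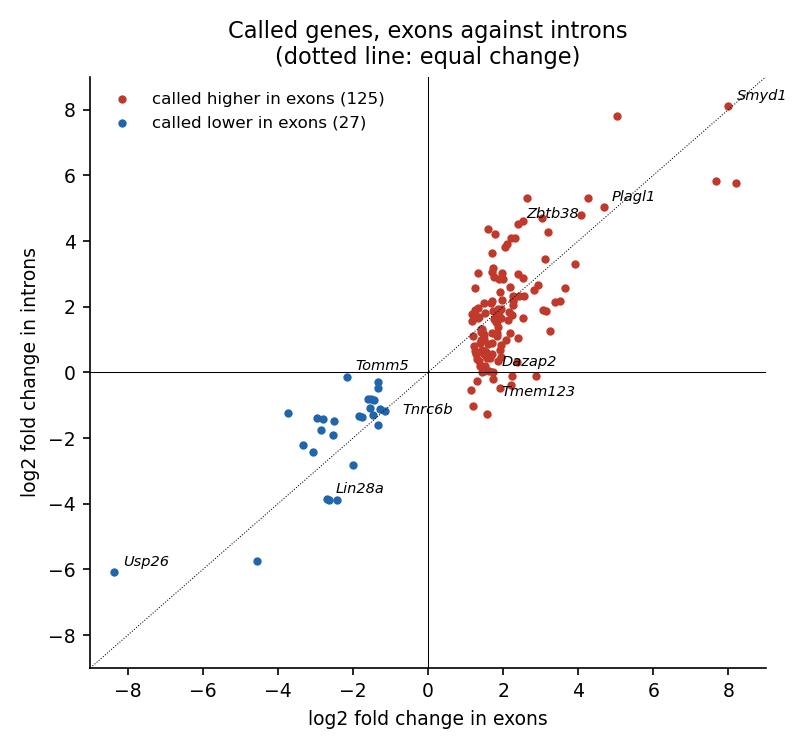
Change in exons (horizontal axis) and in introns (vertical axis), both as log2 fold change of Dicer1-/- minus TFC, for 125 genes called higher (red) and 27 called lower (blue) in exons. The dotted line marks equal change, 90 of the red points have an intronic change of at least 0.5 of the exonic one, and Dazap2, Tmem123 and Tnrc6b lie near or under 0 in introns.

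The position of a gene went with its change. Over the 20 chromosomes with more than 6 tested genes, medians lay between -0.09 and 0.08 except on chromosome 8. There the median over 704 genes was -0.40 in exons and -0.42 in introns, and 30.5% of genes lay above 0. The median deviation of these genes from their 6-library mean was -0.11, -0.30 and -0.27 in knockout libraries and 0.33, 0.13 and 0.14 in TFC libraries, so the lines did not overlap. In all 7 windows of 20 Mb along the chromosome the median was below 0, from -0.58 to -0.32.

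Chromosome 6, at -0.09 as a whole, was split. Between 35 and 85 Mb (mm10), 194 tested genes had a median of 1.01 in exons and 1.16 over the 146 tested in introns, and 167 of them (86.1%) lay above 0. Outside that stretch, 438 genes had a median of -0.43 in exons and -0.33 in introns. The median deviations in the stretch were 0.36, 0.56 and 0.60 in knockout libraries and -0.69, -0.52 and -0.42 in TFC. In 122 windows of 20 Mb on other chromosomes, each with at least 20 tested genes, medians ran from -0.38 to 0.30. The stretch was bounded after the values were seen, and no test is given. The cause of this pattern was not tested.

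The stretch held 11 of the 134 higher genes (among them Casp2, Fkbp9, Gadd45a, Kbtbd2, Krcc1, Osbpl3, Pdia4, Reep1, Smyd1 and Ubn2) and none of the 30 lower. In 86 of its 194 genes the knockout lay wholly above TFC, as it did in 11.7% of all genes tested. Chromosome 8, with 704 tested genes, held 6 of the 30 lower genes (Lpl, Nek1, Nudt21, Smim7, Syce2 and Zmat4) and 4 of the higher (Col4a2, Hhip, Kbtbd11 and Zfp827). Over all tested genes 1.02% were called higher and 0.228% lower. Braf, a kinase of the Erk cascade, had 3353, 3710 and 3823 reads in knockout libraries and 1654, 1968 and 1389 in TFC. Immt, a mitochondrial inner-membrane organiser, had 6087, 9612 and 9926 against 2429, 4876 and 4630. Gars, a glycyl-tRNA synthetase, had 8166, 9609 and 9622 against 3811, 4362 and 5444. These 3, picked after their values were seen, lay in the stretch, had every knockout library above every TFC library and did not pass alone (limma adjusted p = 0.0595, 0.159 and 0.0929). Without the genes of chromosomes 6 and 8, 116 higher and 21 lower calls were left.

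**Figure D4:**
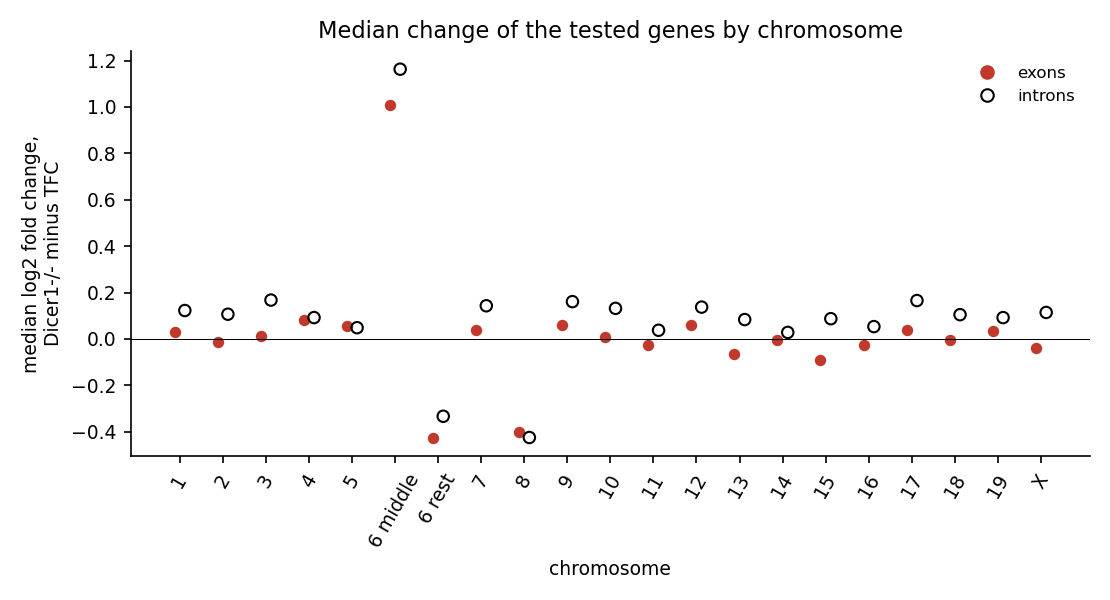
Median log2 fold change of tested genes (vertical axis) for each chromosome but Y, which had 6 tested genes (horizontal axis), exons as filled and introns as open circles, with chromosome 6 divided into its middle (35 to 85 Mb, 194 genes) and its rest (438 genes). The middle of 6 stands at 1.01 and 1.16, the rest of 6 and chromosome 8 between -0.43 and -0.33, and the exonic medians of the other chromosomes shown between -0.09 and 0.08.

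Homeobox genes of the Hoxa cluster, which set position along the body axis, lie within that stretch and were found in the knockout libraries. Hoxa5 had 107, 105 and 122 reads there and was 0 in all 3 TFC libraries, at least 125-fold higher against a floor of 3 reads over the TFC group. Hoxa9 had 199, 84.1 and 151 against 0, at least 163-fold higher, and Hoxa10 had 233, 156 and 77.0 against 0, at least 174-fold higher. The groups did not overlap in the 7 Hoxa genes of the Hox list, while they did in Hoxa4 outside it, and none passed (limma adjusted p = 0.0617 for Hoxa10, 0.0619 for Hoxa9 and 0.0708 for Hoxa5). Genes at or near 0 in TFC passed the filter on level only through the knockout, so that their direction was fixed: the 315 tested genes under 10 reads in TFC had a median change of 2.96.

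Genes of the silencing machinery were mixed, beside 1.02% of all tested genes that rose and 0.228% that fell. Of 17 tested, 12 lay above 0 (median 0.30), 3 rose, the Argonaute gene Ago1 and its GW182 partners Tnrc6a and Tnrc6b, and 1 fell, Lin28a, the protein that blocks let-7 maturation. The microprocessor genes Drosha and Dgcr8 changed by -0.20 (SE 0.25) and 0.36 (SE 0.34), and Ago2 by 0.30 (SE 0.27), without passing. In deadenylation and decapping, 1 of 19 rose, Cnot6l, a catalytic deadenylase subunit, with 2360, 3103 and 3110 reads against 1034, 1271 and 774 (log2 fold change 1.49, SE 0.27, limma adjusted p = 0.0419). Pabpc4, a cytoplasmic poly(A)-binding protein on neither list, fell: its 2544, 2115 and 1870 reads stood against 7265, 6358 and 5444, with no overlap (-1.55, SE 0.23, limma adjusted p = 0.0278).

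In the Hippo and Yap list, of 20 tested genes 18 lay above 0 (median 0.60), 4 rose (1.02% of all genes), 0 fell, and 11 were wholly above TFC (11.7% of all genes). The kinase Lats2 and the angiomotin Amotl1 restrain Yap, and Cyr61 and Ctgf are secreted proteins known as Yap targets. Cyr61 had 2161, 2266 and 2142 reads in knockout libraries and 477, 558 and 639 in TFC. All knockout libraries were above 3 times any TFC level, and the log2 fold change was 1.98 (SE 0.25, limma adjusted p = 0.0166). Amotl1 had 2537, 2839 and 3540 against 1155, 1063 and 729 (1.61, SE 0.27, limma adjusted p = 0.0358). Yap1 itself had 6654, 6896 and 6504 against 4789, 5375 and 5450 and did not pass (0.36, limma adjusted p = 0.491), and Lats1 had 2174, 2701 and 3462 against 1267, 1411 and 1696 (0.91, limma adjusted p = 0.146).

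In the G1/S list 3 of 26 genes rose, Cdkn1a, Lats2 and Rb1, 0 fell, and 20 lay above 0 (median 0.70). Over all tested genes 1.02% rose, 0.228% fell and 49.4% lay above 0. Rb1, the retinoblastoma protein, had 1452, 1471 and 1684 reads against 704, 493 and 524 (1.43, SE 0.28, limma adjusted p = 0.049). Ccnd2, a D-type cyclin on chromosome 6 outside the raised stretch, had 4840, 2719 and 2591 against 121, 608 and 889 and did not pass (6.27-fold in group means, limma adjusted p = 0.0747). In the p53 and apoptosis list 3 of 26 rose, but Casp2 and Gadd45a lie in the raised stretch of chromosome 6, and without chromosomes 6 and 8 Cdkn1a alone was left. Mitotic genes were close to the background, with 0 of 19 called and a median of -0.09.

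Lists of adhesion, matrix and cytoskeleton genes held few calls, 1 or 2 each, beside 1.02% of all tested genes called higher. Parva and Htra1 belong to none of these lists. Itgav, the integrin subunit αv, was the single call among 16 integrins: it had 4011, 4634 and 3623 reads against 962, 935 and 757 (2.21, SE 0.23, limma adjusted p = 0.00766). Parva, the integrin-linked actin binder α-parvin, had 2742, 2844 and 3275 against 292, 40.0 and 431 (4.09, SE 0.76). In both genes the lowest knockout library was above the highest TFC library. Dsp, desmoplakin of desmosomes, was the 1 call among 22 epithelial genes, with 4496, 5121 and 5391 reads against 2137, 1374 and 1297. Cald1 and Smyd1, called in the actin and smooth-muscle list of 21, both lie on chromosome 6, Cald1 just short of 35 Mb. Htra1, a secreted serine protease, had 2010, 3330 and 3596 against 343, 260 and 394 (3.14, SE 0.33). The fibroblast markers, summed above, were lower in every knockout library than in any TFC library, and their part in the results on matrix genes was not tested.

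Other genes that rose, some picked after their values were seen, belong to no list apart from Lamp2. Lrp2, the endocytic receptor megalin, had 4370, 4558 and 4793 reads in knockout libraries and 762, 1512 and 1197 in TFC, with no overlap (2.04, SE 0.28, limma adjusted p = 0.0254). Its chaperone gene Lrpap1 had 4117, 4206 and 4887 against 1420, 1610 and 1641 (2.83-fold in group means), and the folate receptor Folr1 had 1701, 1629 and 1540 against 456, 205 and 483 (2.18, SE 0.38). The sorting receptor Sorl1 had 2309, 1569 and 1627 against 393, 50 and 148 (3.65, SE 0.67). Lamp2, a lysosomal membrane protein, was the 1 call among 25 genes of the lysosome list, of which 12 lay above 0.

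Few signalling genes were called, beside 1.02% of all tested genes that rose and 0.228% that fell. Pdgfc and Hipk3 were picked after their values were seen. Pdgfc, a PDGF ligand, had 3739, 5597 and 5637 reads against 649, 1236 and 987 (2.41, SE 0.31, limma adjusted p = 0.0166). Hipk3, a nuclear kinase, had 3149, 4424 and 3980 against 787, 708 and 874 (2.28, SE 0.24, limma adjusted p = 0.00766). In the LIF pathway, by which serum-grown cells are kept undifferentiated, the kinase gene Jak1 rose, with 2610, 3365 and 2806 against 1109, 1216 and 935, and Pim2 fell. The shared receptor Il6st had 5289, 5239 and 5827 against 3137, 2485 and 2521 without passing (1.01, limma adjusted p = 0.0697). In Fgf and Erk feedback 1 of 20 fell, Spry2, an inhibitor of receptor tyrosine kinase signalling, with 1861, 1637 and 1455 reads against 4347, 4906 and 4223 (-1.45, SE 0.22, limma adjusted p = 0.0278), and the list's median was -0.45. Of 25 Tgf-β, Activin and Nodal genes 0 were called by limma, 20 lay above 0 (median 0.43), and 4 rose with the term for library set, against 7.26% of all genes. The BMP, Wnt and Notch lists had 0 calls each, with medians of 0.43, 0.33 and 0.02 over 20, 24 and 18 genes.

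Lineage genes were called one at a time, beside 1.02% of all tested genes that rose and 0.228% that fell. In the neural list 1 of 11 rose, the POU factor Pou3f2, with 130, 368 and 125 reads and 0 in all TFC libraries (at least 233-fold higher). Pou3f2 thus passed the filter on level only through the knockout, so that its direction was fixed. Neurod1, a proneural factor outside the list, had 999, 437 and 907 against 88.3, 90.0 and 112 (2.92, SE 0.53), and Meis2, a homeobox cofactor, had 732, 995 and 1094 against 49.2, 97.5 and 207 (3.20, SE 0.59). In the primitive endoderm list 2 of 15 rose, the matrix genes Sparc and Col4a2, while 8 lay below 0. Sparc had 14517, 25222 and 22944 reads against 2721, 5170 and 4950. Of 12 trophectoderm genes 0 were called by limma, and 2 rose under the term for library set, against 7.26% of all genes. Krt8, a simple-epithelial keratin, had 762, 493 and 699 against 251, 125 and 158 (1.90, limma adjusted p = 0.104). In the germline list 2 of 19 rose, Rhox6 and Sohlh2, a germ-cell factor with 1244, 1568 and 1839 reads against 189, 178 and 164 (3.11, SE 0.34). Core and naive pluripotency genes had 1 call of 20, the nuclear receptor Nr5a2, with 1013, 1351 and 1114 against 2427, 3902 and 3902 (-1.53). Dppa3, on chromosome 6 outside the raised stretch, had 343, 150 and 194 against 1222, 748 and 958 and did not pass (-2.15, limma adjusted p = 0.0601).

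Chromatin and imprinted genes held calls in both directions, beside 1.02% of all tested genes that rose and 0.228% that fell. Sfmbt2, an imprinted Polycomb-group gene that hosts a large cluster of microRNAs in its intron, had 538, 427 and 491 reads in knockout libraries and 3086, 3269 and 2761 in TFC. The lines were 6.26-fold apart in their means, with no overlap (-2.65, SE 0.25, limma adjusted p = 0.00766), and introns changed by -3.90. Bmi1, a Polycomb repressive complex 1 subunit, was the 1 call among 21 Polycomb and Trithorax genes and rose, with 935, 1806 and 1211 against 203, 183 and 365 (2.41, SE 0.42). Sfmbt2 is on neither that list nor the list of imprinted genes. Genes of the imprinted list had 3 higher calls (Plagl1, Igf2 and Peg3) and 1 lower (Grb10) of 18. Grb10, a growth-restraining adaptor, had 4220, 3219 and 3005 against 7663, 9563 and 7851 (-1.27, SE 0.24), and Igf2, the growth factor, had 1090, 2925 and 2441 against 266, 285 and 495 (2.56, SE 0.44). Dnmt3l was the 1 call among 14 DNA methylation genes.

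**Figure D5:**
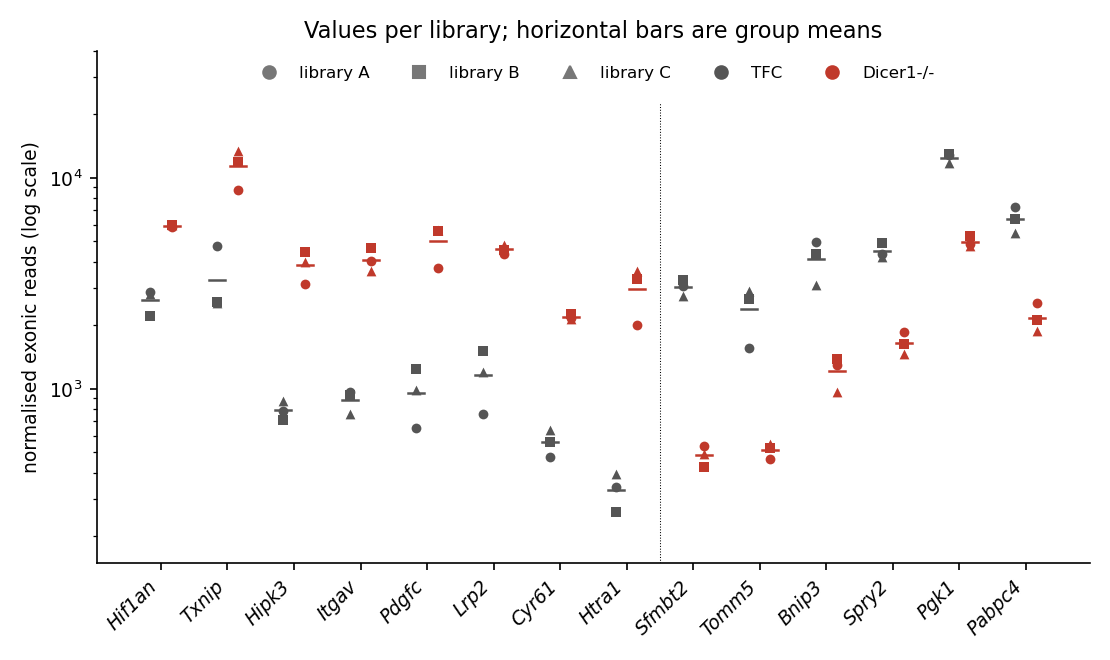
Normalised exonic reads (vertical axis, log scale) in each library for 8 genes called higher and, right of the dotted line, 6 called lower, with TFC in grey and Dicer1-/- in red. Symbols mark libraries A, B and C and bars the group means, and in every gene the 3 knockout values lie on 1 side of the 3 TFC values.

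Metabolic and translation lists held 1 call between them, Pgk1, and their medians differed in sign. Over all tested genes 1.02% rose and 0.228% fell. The lower genes Bnip3, Tomm5 and Cox7a2l, also given here, belong to none of these lists. In glycolysis 14 of 19 tested genes lay below 0 (median -0.59) and 1 fell, Pgk1, phosphoglycerate kinase, with 4860, 5324 and 4770 reads against 12777, 12897 and 11733 (-1.32, SE 0.22, limma adjusted p = 0.0342). Slc16a1, a lactate carrier, had 2692, 2847 and 2528 against 5167, 5694 and 5777 (-1.04, limma adjusted p = 0.055). Hk2, a hexokinase within the raised stretch of chromosome 6, went the other way, with 7551, 7474 and 7370 against 4520, 3569 and 3325 (0.98, limma adjusted p = 0.0853). Bnip3, a mitophagy receptor, fell, with 1290, 1384 and 960 against 4957, 4336 and 3101 (-1.76, SE 0.27). Tomm5, a subunit of the mitochondrial import pore, had 463, 526 and 550 against 1559, 2664 and 2918 (-2.16, SE 0.31), while its introns changed by -0.13. Cox7a2l, an assembly factor of respiratory supercomplexes, had 1141, 1456 and 1348 against 4724, 3868 and 3478 (-1.61, SE 0.23). Of 34 cytosolic ribosomal protein genes tested 31 lay below 0 (median -0.41), with 0 called by limma and 10 lower under the term for library set, which called 4.94% of all genes lower. Of 78 mitochondrial ribosomal protein genes 61 lay below 0 (median -0.40), with 0 called and 12 under that term. Respiratory chain genes had a median of -0.13 over 50 genes, with 0 called. Cholesterol synthesis genes had a median of 0.11 over 22 genes, 12 of them above 0, with 0 called.

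Families named by a shared symbol had few calls, beside 1.02% of all tested genes that rose and 0.228% that fell. Of 356 Zfp zinc-finger genes 234 lay below 0 (median -0.25) and 1 rose, Zfp827. Of 45 Trim genes 33 lay above 0 (median 0.65) with 0 called by limma and 8 higher under the term for library set, which called 7.26% of all genes higher. The Slfn genes had 2 lower calls of 5, Slfn3 and Slfn9, whose sequences are close enough that reads may be shared between copies. RNA sensing and interferon genes had 2 calls of 26, Ifitm3 and Nmi, both higher, and a median of 0.45.

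The remaining lower calls were of scattered function. Trh, the thyrotropin-releasing hormone precursor, had 4148, 1640 and 1501 reads against 16758, 9721 and 9760, with library A high in both lines (-2.43, SE 0.41). Celf4, a neuronal splicing and translation factor, had 211, 127 and 189 against 862, 1050 and 1041 (-2.51, SE 0.40). Gprasp2 and Armcx2, neighbours in a family on chromosome X, fell by 2.01 and 1.93 on the log2 scale. Syce2, a synaptonemal complex protein, Nek1, a ciliary kinase, Nudt21, a 3′-end processing factor, and Smim7 all lie on chromosome 8 and fell by 1.83, 1.35, 1.16 and 1.47. Alms1, a centrosomal protein, had 1575, 1577 and 1479 against 3315, 5963 and 4047 (-1.48), and lies on chromosome 6 just past 85 Mb, where the median is -0.41. Asnsd1 fell by 1.33.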

How the data were processed

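PolyA RNA of 3 Dicer1-/- and 3 TFC libraries was compared. The authors deposited normalised reads, a signal with 1 column per line for exons and for introns, per the file headers. That a column is the mean of 3 libraries, each divided by a size factor, was inferred from its values. TopHat2 2.0.12, DESeq and mm10 were used, per the submitters' processing notes; the annotation and counting rules are not given in the sources used here. Each mean was solved for whole reads in 3 libraries: 99.7% and 99.4% of exonic genes had 1 solution. Between 60.1% and 78.1% of recovered read numbers were even in a library, so reads are not independent and no counting intervals are given. The planned tests assumed values for each library. limma 3.58.1 (R 4.3.3, trend) was run on log2(value + 1), 4 residual degrees of freedom, for genes with a mean of at least 10, with Benjamini-Hochberg adjustment over all genes tested. Fold changes on this scale understate changes of low genes. An exact permutation test of 3 against 3 libraries cannot go below p = 0.1. Members and the 42 gene lists were chosen with earlier results of these data known. Named genes were Dicer1, all lower calls, the 25 largest higher calls with a knockout mean of at least 100, called list members, the 4 largest changes per list and the 10 highest levels; any other gene given with values was picked after its values were seen. Annotation came from GENCODE M21 and RefSeq. Alternatives were another pseudocount, filter, scaling or variance model, library-set terms, and leaving out libraries.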

Additional observations from a re-analysis of the deposited data

How the results depend on the processing

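Against 164 exonic calls, limma made 101, 0, 0, 483, 7 and 0 calls with knockout A, B or C or TFC A, B or C left out (0 to 483), 35 without a variance trend, 74 with limma-voom, 1605 with a term for library set and 61 without both A libraries. A pseudocount of 8 gave 198, a filter at 50 gave 155, no filter 154, quantile normalisation 236, and leaving out chromosomes 6 and 8, chosen after seeing the data, 137. Intronic calls (41) became 82 with a pseudocount of 8 and 0 to 37 with 1 library left out (13, 0 and 1 without knockout 1, 2 or 3, and 37, 1 and 2 without TFC 1, 2 or 3). Dicer1 passed the threshold under quantile normalisation (-1.08), with the library-set term (-1.03) and, among log2 fold changes of -1.11 to -0.91 with 1 library left out, without TFC A (-1.10). No named call changed direction under any alternative run. The cause of these shifts was not tested. Leaving out chromosomes 6 and 8 gave seed-match medians of -0.02, 0.18 and 0.17 for 0, 1 and at least 2 matches. No paired analysis was possible because the columns carry no replicate numbers by which B and C could be matched between the lines. The term for library set, which was fitted, separates A from the others and rests on the recovered values, not on the labels. With this depth and spread, no change under 1.13 on the log2 scale was called.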
